A study of Mus musculus with 29 samples.

Results

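Stroke in NSG mice was measured by RNA sequencing of brain tissue in 7 of the 29 mice of the study. The labels give 3 of them as genotype NSG with treatment Stroke and 4 as genotype NSG with treatment Ctrl, and these labels alone chose the members. NSG (NOD scid gamma) mice carry the scid change of Prkdc and a disrupted Il2rg on a NOD background and therefore form no mature T, B or NK cells, while the other 22 mice of the study are WT or Rag2-/- mice on a C57BL/6 background, part of them with tacrolimus. The mice were 3 months old and both sexes were used. The stroke was photothrombotic, made by light through the intact skull after Rose Bengal, and placed in the right sensorimotor cortex, and tissue around it was taken at 21 dpi (days after stroke). According to the methods the control RNA came from the contralesional site, whereas the results speak of naïve mice, and the labels say only Ctrl, so the 4 controls are called non-stroked here. The methods also count fewer NSG mice for RNA sequencing than the 7 samples labelled so, and each sample is taken here as 1 mouse, as the labels have it. The comparison asks which transcripts differ in stroked tissue when T, B and NK cells are missing in both groups.

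At this time after such a lesion the tissue is a scar in the making. Microglia and incoming macrophages clear dead cells and myelin, reactive astrocytes build a border around the core, fibroblasts of the meninges and vessels lay down collagen in it, and neurons near the edge reorganize their connections. Complement, chemokines, interferon-driven genes and antigen presentation are in part made by resident brain cells and can be switched on without lymphocytes.

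All 7 libraries belong to the Imm2 cohort of the labels and held 32821218 to 41093219 counts. Of the genes altered in the strains, Il2rg had 22 to 37 counts per mouse and Prkdc 660 to 1286, which says nothing about the product, so the labels could not be checked on them. Rag2, which is used by developing lymphocytes, had 0 counts in all 7 mice, and Hc, which encodes complement C5, lay at 0.253, 0.272 and 0.398 CPM in stroked and 0.380, 0.0762, 0.482 and 0.155 CPM in non-stroked mice. The T cell receptor complex genes Cd3d and Cd3g and the T cell genes Cd8a and Trbc1 had 0 counts in all 7 mice, as did the B cell gene Ms4a1 and the NK cell gene Ncr1, so each of these was below 3 counts per library. Neuronal genes were abundant in every mouse, with a summed level of 17250 to 21110 CPM for 20 neuronal markers.

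Features of single mice moved with the groups. Stroked mice 1 and 2 had 0 counts of Ddx3y, which lies on chromosome Y, whereas stroked mouse 3 and the 4 non-stroked mice had 1457 to 1936, so sex was unevenly spread. Ttr, made by the choroid plexus, ranged from 4.12 to 1060 CPM in non-stroked and from 5.51 to 380.1 CPM in stroked mice, and none of the 16 choroid plexus genes or the 6 red blood cell genes was called (edgeR; 0 at an unadjusted p below 0.05, and DESeq2 called 0). On a principal component analysis of the 500 most variable genes, the first component held 69.4% of the variance and separated the groups, with stroked mouse 2 farthest out at -52.3, stroked mice 1 and 3 at -24.0 and -15.8, and the non-stroked mice between 19.8 and 25.1. Stroked mouse 1 stood apart in another way: of 14333 genes that averaged 1 CPM or more, those with the shortest exons (total under 3398 bases) lay at a median log2 ratio of 0.48 above the non-stroked mean in this mouse and those with the longest (over 5936 bases) at -0.37. The same values were -0.02 and -0.07 in stroked mouse 2, 0.07 and -0.10 in stroked mouse 3, and within 0.07 of 0 in each non-stroked mouse. What set mouse 1 apart was not tested.

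**Figure D1:**
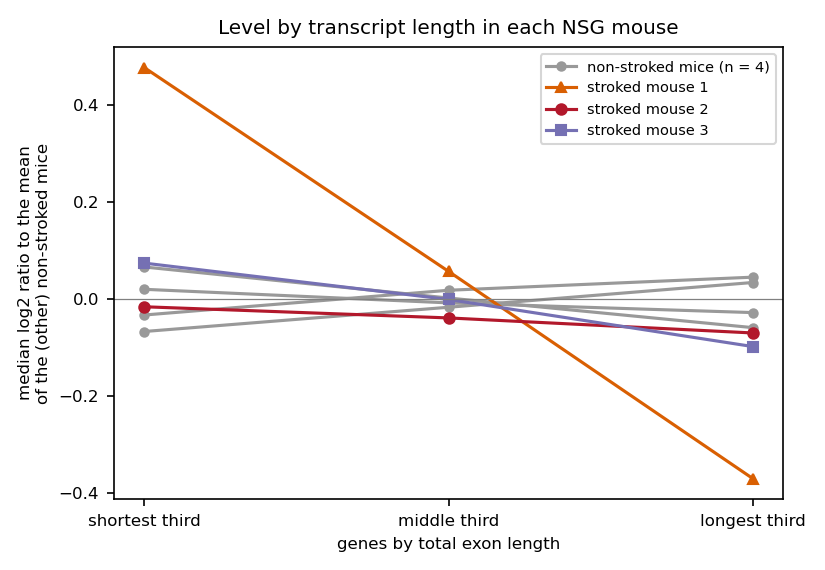
Median log2 ratio of each NSG mouse to the mean of the non-stroked mice (y axis; for a non-stroked mouse, to the mean of the other 3) for genes split by total exon length into 3 equal parts (x axis). Stroked mouse 1 runs from 0.48 for the shortest to -0.37 for the longest part, and the other 6 mice stay between -0.10 and 0.07.

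Stroked and non-stroked NSG mice differed in 933 genes at the thresholds given next, and nearly all of these were higher after stroke. Of 17031 genes tested, 853 (5.01%) were called higher and 80 (0.470%) lower, where called means that edgeR's quasi-likelihood test gave an adjusted p under 0.05 together with a log2 fold change beyond 1 in either direction. This imbalance depended on the fold threshold: at an adjusted p below 0.05 with no minimum fold, 2212 genes were higher and 1514 lower. The median log2 fold change over all genes was 0.03. Of the 853 higher genes, 403 averaged below 1 CPM (counts relative to the scaled library size) in non-stroked tissue, and the median log2 fold change of the 853 was 1.68. All 3 stroked mice were separated from all 4 non-stroked mice in 766 of the 853 and in 51 of the 80 genes, and this held for 25.0% of all genes tested. In bulk tissue, fewer cells of a type and less RNA per cell cannot be told apart.

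The 3 mice contributed unequally. Stroked mouse 2 had the highest level in 739 of the 853 higher genes, stroked mouse 1 in 87 and stroked mouse 3 in 26, and the median log2 ratio of these genes to the non-stroked mean was 1.98 in mouse 2, 1.22 in mouse 1 and 1.15 in mouse 3. For the 80 lower genes it was mouse 1 that was lowest most often, in 54, with a median log2 ratio of -1.85, against -1.14 in mouse 2 and -0.67 in mouse 3. Without stroked mouse 2, 542 genes were called higher, 513 of them among the 853, and without stroked mouse 1, 25 were called lower, 12 of them among the 80. With only the NSG samples in the fit 542 genes were called higher and 7 lower. With sex as a covariate 524 were higher and 57 lower, and with the male mice alone, 1 stroked against 4, 102 were higher and 0 lower (edgeR, 1895 genes at an unadjusted p below 0.05).

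**Figure D2:**
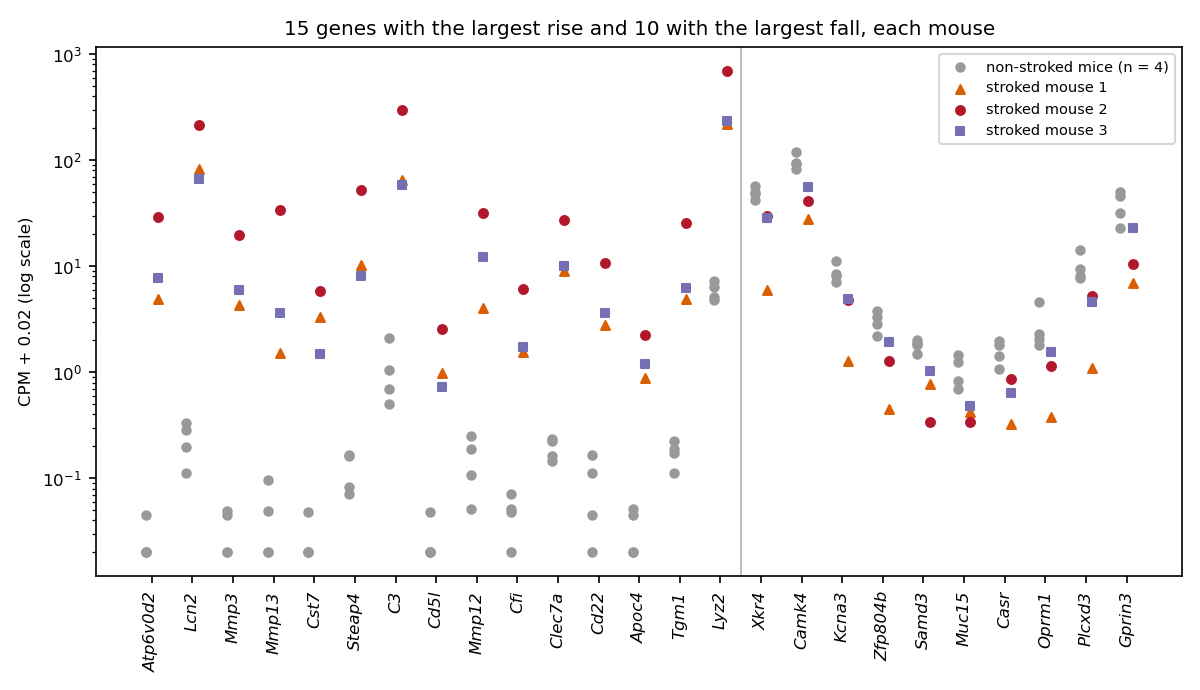
CPM plus 0.02 (y axis, log scale) for the 15 genes with the largest rise (left) and the 10 with the most negative log2 fold change (right) that were called without overlap, one point per mouse. Stroked mouse 2 is highest in all 15 genes on the left, and stroked mouse 1 is lowest in 8 of the 10 on the right.

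The genes with the largest rise encoded secreted proteins of inflammation, proteases and products of lipid- and debris-laden phagocytes. Lcn2, the iron-binding acute-phase protein lipocalin 2, reached 82.4, 216 and 67 CPM in stroked mice 1, 2 and 3, against 0.263, 0.178, 0.312 and 0.0928 CPM in non-stroked mice 1 to 4 (log2 fold change 9.14 with SE 1.07, edgeR adjusted p = 1.73e-05). C3, the central complement protein, was at 64.7, 298 and 58.6 CPM, against 2.11, 0.482, 1.02 and 0.681 (log2 fold change 7.04 with SE 1.06, edgeR adjusted p = 0.000102). The groups lay far apart for both, with mouse 2 several times above the other stroked mice. Lyz2, the lysozyme of macrophages and neutrophils, was at 219, 693 and 234 CPM, against 6.29, 4.75, 7.23 and 5.11 (log2 fold change 6.03 with SE 0.86, edgeR adjusted p = 7.4e-05). Clec7a, the receptor dectin-1 of activated microglia, was at 8.98, 27.3 and 10.1 CPM, against 0.205, 0.127, 0.142 and 0.217 (log2 fold change 6.47 with SE 0.97, edgeR adjusted p = 0.000102). Steap4, a metalloreductase of reactive astrocytes, was at 10.2, 52 and 8.05 CPM, against 0.146, 0.0508, 0.142 and 0.0619 (log2 fold change 7.83 with SE 1.10, edgeR adjusted p = 6.25e-05). In each of these 3 genes the lowest stroked mouse lay far above the highest non-stroked one. Tgm1, a transglutaminase, was at 4.86, 25.5 and 6.24 CPM after stroke, against 0.205, 0.152, 0.170 and 0.0928 (log2 fold change 6.26 with SE 0.95, edgeR adjusted p = 0.000111). Cfi, the protease that inactivates C3b, was at 1.52, 6.13 and 1.71 CPM, against 0, 0.0508, 0.0284 and 0.0309 (log2 fold change 6.61 with SE 0.69, edgeR adjusted p = 1.24e-05), and had the smallest p of all genes.

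For 5 of the 15 leading genes the non-stroked mice together held 1 or 2 counts, so a ratio of summed counts with its exact 95% interval, which covers counting error only, stands in for the fitted fold. Atp6v0d2, a subunit of the vacuolar proton pump found in osteoclasts and foamy macrophages, had 1613 counts in the stroked against 1 in the non-stroked mice, a ratio of 2020 (interval 362 to 79900). Cst7, the cystatin F of activated microglia, had 410 against 1 (ratio 514, interval 91.7 to 20300), and Cd5l, a macrophage survival factor, 163 against 1 (ratio 204, interval 36.1 to 8120). Apoc4, an apolipoprotein, had 163 against 2 (ratio 102, interval 27.8 to 850). In CPM the stroked mice held 4.86, 28.8 and 7.77 of Atp6v0d2, 3.26, 5.76 and 1.47 of Cst7, 0.962, 2.52 and 0.704 of Cd5l and 0.860, 2.25 and 1.16 of Apoc4. Each was called (edgeR adjusted p = 0.000111, 4.55e-05, 0.0335 and 0.00215), and each was highest in mouse 2. The call of Cd5l was lost on leaving out any mouse but stroked mouse 3 (edgeR adjusted p from 0.0673 to 0.11).

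Matrix metalloproteinases, which cut collagen and other matrix proteins, and their inhibitors included some of the strongest changes. Of 18 tested, 8 were called higher (Mmp2, Mmp3, Mmp8, Mmp12, Mmp13, Mmp19, Mmp27 and Timp1) and none lower. The fold changes of the list had a median log2 value of 0.97. Mmp3, the stromelysin 1, was at 4.25, 19.8 and 6.0 CPM in stroked mice, with 2 counts in all non-stroked mice together (ratio 730, interval 202 to 6040, edgeR adjusted p = 0.0011). Mmp12, the elastase of macrophages, was at 4.0, 31.4 and 12.3 CPM, against 0.0877, 0.229, 0.170 and 0.0309 (log2 fold change 6.85 with SE 1.18, edgeR adjusted p = 0.000419). Mmp13, the collagenase 3, was at 1.49, 33.6 and 3.58 CPM, against 0.0293, 0.0762, 0 and 0 (log2 fold change 8.66 with SE 1.35, edgeR adjusted p = 0.000133). In mouse 2 Mmp13 was thus far above the other stroked mice. Timp1, which blocks these enzymes, was at 5.59, 19.6 and 5.11 CPM, against 0.380, 0.279, 0.368 and 0.371 (log2 fold change 4.85 with SE 0.69, edgeR adjusted p = 7.4e-05), and Mmp2, the gelatinase A of fibroblasts and vessels, at 8.43, 29.3 and 11 CPM, against 6.58, 4.04, 4.37 and 3.62 (log2 fold change 1.81 with SE 0.42, edgeR adjusted p = 0.00372). Mmp9, the gelatinase of neutrophils, did not pass (1.39, 3.36 and 2.17 CPM against 1.67, 1.98, 2.04 and 1.73, edgeR adjusted p = 0.329), nor did Timp3, whose levels overlapped (95.2, 147 and 146 CPM against 119, 84.4, 133 and 104). Without stroked mouse 2, 6 of the 8 were called, and without mouse 1, 10 members were. The call of Mmp2 was lost without mouse 2 (edgeR adjusted p = 0.0601), and that of Mmp8 without mouse 2 (0.229) and without non-stroked mouse 1, 2 or 4 (0.0697 to 0.0858).

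Of the 8 genes, 5 (Mmp13, Mmp12, Mmp3, Mmp8 and Mmp27) lie in 1 cluster on chromosome 9 of GRCm38, with Mmp13 starting at base 7272514 and Mmp27 at 7571396. The stretch just before the start site is shown for those in which a script found the binding motif of AP-1 (Fos and Jun proteins), TGANTCA, which reads the same on both strands and is printed in capitals. The sequences are RefSeq's, of the GRCm38.p6 reference and thus of C57BL/6 and not of NOD mice, in 120 bases from 5′ to 3′ that end at the base before the start.
Mmp13 (chr9:7272394-7272513, plus strand): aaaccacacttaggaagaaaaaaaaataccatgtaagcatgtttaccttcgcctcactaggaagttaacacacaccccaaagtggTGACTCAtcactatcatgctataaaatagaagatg
Mmp12 (second of 2 listed starts, chr9:7347254-7347373, plus strand): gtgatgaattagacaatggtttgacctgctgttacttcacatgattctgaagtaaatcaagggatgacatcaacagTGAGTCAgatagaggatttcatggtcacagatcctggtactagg
Mmp3 (chr9:7445702-7445821, plus strand): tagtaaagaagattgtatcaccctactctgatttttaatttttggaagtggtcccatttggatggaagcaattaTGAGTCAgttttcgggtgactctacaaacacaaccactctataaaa
The first listed start of Mmp12 held no match within 250 bases, so Mmp12 is counted below through its second start. At the starts shown, the motif began 35 bases before the start in Mmp13, 44 in Mmp12 and 46 in Mmp3. Over 250 bases before the start, 3 of the 6 higher members with a listed promoter held it, beside 12.5% of the 624 higher genes with a promoter and 5.85% of the 12275 tested genes with one. A match is a description of the letters and not of binding.

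Most complement genes were higher after stroke. Of 25 tested, 17 were called higher and none lower, and the median log2 fold change was 2.06. The groups did not overlap in 21 of the 25, beside 25.0% of all genes tested. The genes of C1q, which opens the classical pathway on debris and synapses and is made by microglia, showed similar rises: C1qa was at 284, 337 and 189 CPM, against 45.7, 50.7, 49.6 and 56.9 (log2 fold change 2.41 with SE 0.29, edgeR adjusted p = 1.78e-05), and C1qb and C1qc had log2 fold changes of 2.46 and 2.47. C4b, the next protein of the pathway, was at 137, 234 and 161 CPM, against 38.2, 25.2, 37.8 and 22.9 (log2 fold change 2.52 with SE 0.45, edgeR adjusted p = 0.000463), although its reads can be shared with a near-identical copy. The inhibitor gene Serping1 (log2 fold change 2.58) and the receptor genes C3ar1 (2.74), C5ar1 (2.12) and Itgax (4.71) were called too. Members without a call included the membrane regulators Cd46 and Cd59a, with log2 fold changes of -0.16 and 0.42. Without stroked mouse 2 the number called was 16 of 25, and without stroked mouse 1 it was 17.

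Of 14 acute-phase genes, which code for secreted proteins of inflammation, 10 had enough counts to be tested. The filter on counts keeps a gene that is low in non-stroked mice only where other mice raise it. The share called is thus in part set by the filter. All 10 genes tested were called, with a median log2 fold change of 2.62. Besides Lcn2, they included Saa3, a serum amyloid A made by macrophages, at 2.05, 2.35 and 0.918 CPM, against 0.0293, 0.0254, 0 and 0.155 (log2 fold change 5.05 with SE 1.02, edgeR adjusted p = 0.00192), and Ptx3, a pentraxin, at 3.29, 10.3 and 2.33 CPM, against 0.263, 0.330, 0.227 and 0.247 (log2 fold change 4.29 with SE 0.72, edgeR adjusted p = 0.000284). Serpina3n, a protease inhibitor of reactive astrocytes with several close paralogs, was at 142, 227 and 108 CPM, against 45.7, 42.2, 59.2 and 45.3 (log2 fold change 1.73 with SE 0.43, edgeR adjusted p = 0.00608). Hp, the haptoglobin that binds free haemoglobin, was at 0.354, 0.593 and 0.153 CPM, against 0, 0, 0.0567 and 0.0928 (log2 fold change 3.25 with SE 0.96, edgeR adjusted p = 0.0181), and the groups did not overlap. Without mouse 2, 7 were called, with only the NSG samples in the fit 8, and with sex as a covariate 5. Hp lost its call without stroked mouse 2 (edgeR adjusted p = 0.0708) and without non-stroked mouse 2 (0.055).

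**Figure D3:**
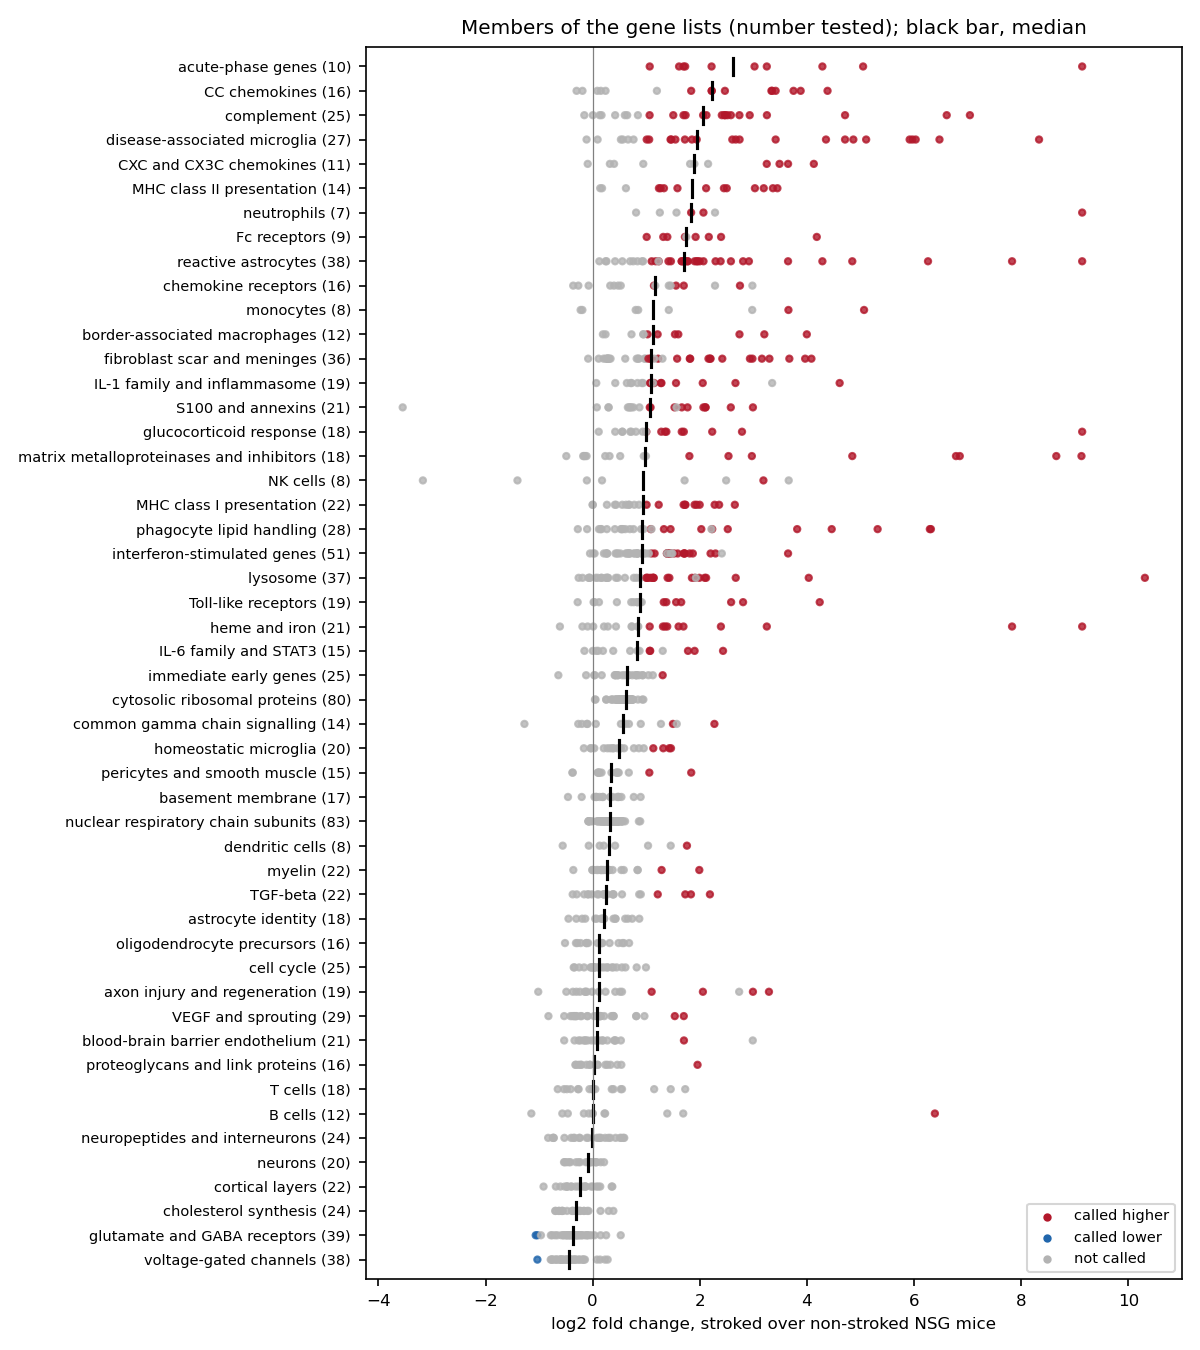
Log2 fold change (x axis) of each tested member of 50 gene lists (y axis, number tested in parentheses), with red for called higher, blue for called lower, grey for not called and a black bar at the list's median. Lists of phagocytes, complement, acute-phase proteins and chemokines lie to the right of 0, and receptors and channels of neurons to the left.

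Genes of lipid- and debris-laden phagocytes were higher after stroke. Of 27 genes of disease-associated microglia, which take up lipid and debris, 21 were called higher (median log2 fold change 1.94). Spp1, osteopontin, was at 78.1, 278 and 75.6 CPM, against 4.74, 3.15, 7.46 and 4.42 (log2 fold change 4.87 with SE 0.72, edgeR adjusted p = 8.87e-05). Gpnmb, a glycoprotein of lipid-laden macrophages, was at 87.6, 498 and 129.8 CPM, against 4.15, 3.56, 4.31 and 3.19 (log2 fold change 5.97 with SE 0.89, edgeR adjusted p = 9.78e-05). Lgals3, galectin 3, was at 14.2, 47.9 and 23.1 CPM, against 1.11, 0.863, 0.539 and 0.773 (log2 fold change 5.11 with SE 0.90, edgeR adjusted p = 0.000411). In these genes mouse 2 lay above the other stroked mice, whereas the receptor Trem2 (44.4, 59.7 and 39.1 CPM, against 11.1, 12.7, 12.5 and 13.4) and Apoe, the main lipid carrier of the brain (4393, 4354 and 3218 CPM, against 1420, 1416, 1465 and 1523), were closer between mice, with log2 fold changes of 1.94 and 1.45. Lilr4b, an inhibitory receptor with a close copy in Lilrb4a, was at 1.54, 12.3 and 4.8 CPM, against 0.117, 0.102, 0.113 and 0.0619 (log2 fold change 5.92 with SE 0.97, edgeR adjusted p = 0.000228). Without stroked mouse 2, 18 of the 27 were called.

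Genes of resting microglia mostly had positive changes below the fold threshold. Of 20 homeostatic genes 4 were called higher, among them Olfml3, Aif1 and Fcrls, and none lower, beside 5.01% of all genes called higher. With a positive change and no minimum fold 10 of the 20 had an adjusted p below 0.05, beside 2212 of all 17031, and the median log2 fold change was 0.49. With sex as a covariate 2 were called. Aif1, which encodes Iba1, was at 12.1, 8.72 and 7.62 CPM, against 2.95, 3.76, 3.46 and 3.93 (log2 fold change 1.43 with SE 0.27, edgeR adjusted p = 0.000847). P2ry12, the ADP receptor that guides microglial processes, was at 50.6, 44.3 and 45.9 CPM, against 43.7, 46.2, 48.5 and 54.7 (log2 fold change -0.04 with SE 0.14, edgeR adjusted p = 0.859), and Sall1, a factor of microglial identity, had a log2 fold change of -0.16 (0.54 for the edgeR adjusted p). Tmem119 and Csf1r had adjusted p below 0.05 but log2 fold changes of 0.77 and 0.59, below the threshold. Lists of genes that phagocytes use gave the following counts: 8 of 9 Fc receptor genes, 7 of 19 Toll-like receptor pathway genes, 17 of 37 lysosome genes, 11 of 28 lipid handling genes and 7 of 12 genes of border-associated macrophages were called higher and none lower. Examples were Fcgr3 (22, 37.1 and 21.1 CPM, against 6.55, 7.21, 6.75 and 7.7), the pattern receptor Tlr2 (4.76, 11.5 and 4.74, against 1.2, 1.14, 1.3 and 1.02), the protease Ctss (225, 270.5 and 146, against 46.7, 48.8, 46.7 and 54.9) and the lipoprotein scavenger Msr1 (2.28, 9.36 and 3.0, against 0.0585, 0.254, 0.142 and 0), and none of these overlapped. Without mouse 2, 11 lysosome genes were called and with sex as a covariate 10, and with only the NSG samples in the fit 4 Toll-like receptor pathway and 4 border-associated macrophage genes were. Atp6v1a, a proton pump subunit that all cells use, did not pass, with a log2 fold change of -0.26. Of 8 monocyte markers 2 were called, and 0 with only the NSG samples in the fit. Plac8, among the 2, was at 0.405, 0.395 and 0.122 CPM, against 0.0293, 0, 0.0567 and 0. It rested on 36 counts in the stroked and 3 in the non-stroked mice.

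Reactive astrocytes were represented by 38 genes, of which 27 were called higher (median log2 fold change 1.71), and 26 were called without mouse 2. Gfap, the intermediate filament of astrocytes, was at 1284, 1601 and 939 CPM, against 304, 243, 268 and 225 (log2 fold change 2.29 with SE 0.34, edgeR adjusted p = 9.78e-05). Vim, a filament shared by reactive astrocytes, fibroblasts and phagocytes, was at 136, 256 and 108 CPM, against 29.1, 18, 23.4 and 17.8 (log2 fold change 2.92 with SE 0.43, edgeR adjusted p = 8.58e-05). Cd14, the lipopolysaccharide co-receptor, was at 8.6, 15.9 and 6.85 CPM, against 1.14, 1.7, 1.56 and 1.55, and Osmr, the receptor of oncostatin M, at 7.54, 23.9 and 10.9 CPM, against 4.07, 2.87, 4.62 and 3.59. None of the 18 genes of astrocyte identity was called (edgeR; 10 at an unadjusted p below 0.05, and DESeq2 called 0), and 7 of them had an adjusted p below 0.05 with smaller positive changes, beside 21.9% of all genes in either direction. Glul, glutamine synthetase, was at 2004, 1759 and 1688 CPM, against 1369, 1425, 1162 and 1467 (log2 fold change 0.42, edgeR adjusted p = 0.00539, and 0.059 without mouse 1), and Slc1a2, the main glutamate transporter, at 2638, 4479 and 4021, against 4327, 4300, 3724 and 4667 (log2 fold change -0.20, edgeR adjusted p = 0.377).

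Chemokine genes were higher in stroked mice that lack lymphocytes. Of 16 CC chemokines 10 were called higher (median log2 fold change 2.22), and of 11 CXC and CX3C chemokines 4 were (median 1.90). Ccl6 and Ccl9, made by macrophages, were at 2.68, 6.47 and 3.83 and 2.4, 6.18 and 2.88 CPM, against 0.322 to 0.482 and 0.609 to 1.08. Ccl3, a ligand of Ccr1, was at 1.39, 2.03 and 1.47 CPM, against 0.205, 0.152, 0.0567 and 0.217 (log2 fold change 3.35 with SE 0.52, edgeR adjusted p = 0.000133). Cxcl1, which draws neutrophils, was at 0.810, 3.68 and 0.918 CPM, against 0.0877, 0.0508, 0.113 and 0.155 (log2 fold change 4.13 with SE 0.63, edgeR adjusted p = 0.000111). Cxcl16 was at 9.06, 25.3 and 9.67 CPM, against 1.75, 1.17, 2.13 and 1.11 (log2 fold change 3.25 with SE 0.52, edgeR adjusted p = 0.000178). The ligand Cx3cl1 of neurons did not pass (822, 737 and 776 CPM, against 733, 890.5, 775 and 922). Chemokine receptors were called in 4 of 16, among them Ccr1 and Cxcr4, the latter not without mouse 2 (edgeR adjusted p = 0.1). With only the NSG samples in the fit 6 CC chemokines and 2 receptors were called, and 2 receptors also without mouse 2 and with sex as a covariate. Of 7 neutrophil markers tested 3 were called, among them Lcn2, which astrocytes also make, while S100a9 (0.304, 0.939 and 0.734 CPM, against 0.263, 0.127, 0.397 and 0.0928) did not pass. Of 8 dendritic cell genes 1 was called, Cd209a, beside 5.01% of all genes called higher. On leaving out any mouse other than non-stroked mouse 1, Cd209a was not called (edgeR adjusted p from 0.055 to 0.113).

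Interferon-stimulated genes showed a partial response. Of 51 tested 18 were called higher and none lower, 50 had a positive log2 fold change, and the median was 0.92. The groups did not overlap in 35 of the 51, beside 25.0% of all genes tested. Called members included Ifitm2 and Ifitm3, which block viral entry, Bst2, Gbp2, Isg20, Slfn2 and Zbp1. Ifitm2 was at 15.9, 25.9 and 14.6 CPM, against 6.61, 4.67, 7.31 and 6.43 (log2 fold change 1.59 with SE 0.25, edgeR adjusted p = 0.000133), and Gbp2, a guanylate-binding protein, at 8.1, 14.3 and 6.98 CPM, against 4.62, 3.35, 3.2 and 3.06 (log2 fold change 1.46 with SE 0.34, edgeR adjusted p = 0.00425). Cxcl10, an interferon-driven ligand of the T and NK cell receptor Cxcr3, was at 2.02, 3.73 and 1.07 CPM, against 0.322, 0.0254, 0.255 and 0.124 (log2 fold change 3.65 with SE 0.67, edgeR adjusted p = 0.000648). The core antiviral genes were less clear: Isg15 was at 1.52, 1.95 and 1.01 CPM, against 0.497, 0.660, 0.397 and 0.619 (log2 fold change 1.46 with SE 0.56, edgeR adjusted p = 0.0644), Ifit1 at 3.16, 4.99 and 3.33, against 1.49, 1.88, 2.47 and 2.26 (log2 fold change 0.92 with SE 0.42, edgeR adjusted p = 0.118), and Irf7, the factor that amplifies the response, at 2.91, 4.64 and 2.97, against 2.05, 2.01, 2.3 and 2.29 (log2 fold change 0.7 with SE 0.41, edgeR adjusted p = 0.22). Without stroked mouse 2, 12 were called, with sex as a covariate 8, and with the male mice alone 0. Zbp1 lost its call without mouse 2 (edgeR adjusted p = 0.0966), and Isg15 passed without mouse 3 (0.046).

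For this list the motif searched was the interferon-stimulated response element, read as GAAA, any 2 bases and GAAA again, on either strand (on the opposite one as TTTC, any 2 bases and TTTC), and 2 such matches can overlap. It is printed in capitals in the 120 bases before the start of the 3 called members with the smallest p that held it there, from the same RefSeq table.
Ifitm2 (chr7:140955962-140956081, minus strand): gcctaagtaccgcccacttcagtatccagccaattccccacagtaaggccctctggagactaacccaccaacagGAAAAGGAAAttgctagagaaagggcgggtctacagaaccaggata
Gbp2 (chr3:142620543-142620662, plus strand): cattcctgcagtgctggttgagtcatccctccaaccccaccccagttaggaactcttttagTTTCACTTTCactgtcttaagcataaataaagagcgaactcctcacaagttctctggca
Trim30a (first of 2 listed starts, chr7:104465194-104465313, minus strand): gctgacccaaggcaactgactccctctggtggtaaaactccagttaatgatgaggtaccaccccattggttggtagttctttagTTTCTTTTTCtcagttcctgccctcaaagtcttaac
The second listed start of Trim30a held no match within 250 bases. Over 250 bases before the start, 20 of the 37 list members with a promoter held the motif (54.1%) and 7 of the 13 called ones (53.8%), beside 8.01% of the genes called higher and 3.20% of all tested genes with a promoter. The share was thus about the same in called members and in the whole list, and no test was made of it.

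Genes of antigen presentation, which show peptides to T cells, were called in both classes. Of 22 genes of MHC class I presentation 11 were called higher (median log2 fold change 0.94), and of 14 of class II 11 were (median 1.85). B2m, the light chain of class I, was at 179, 239 and 123 CPM, against 55.5, 54.3, 52.1 and 56.7 (log2 fold change 1.72 with SE 0.24, edgeR adjusted p = 4.55e-05). The heavy chain genes H2-K1 and H2-D1 were at 31.1, 35.8 and 23.4 and 95.5, 141 and 78.6 CPM, against 5.73 to 7.11 and 25.9 to 30.2, and they and other H2 genes are highly similar to each other and differ between strains, so that levels are compared only within NSG mice. Cd74, the invariant chain of class II, was at 33.2, 58.8 and 31.1 CPM, against 4.01, 3.45, 7.46 and 3.0 (log2 fold change 3.19 with SE 0.64, edgeR adjusted p = 0.00123). H2-Ab1, a class II chain, was at 6.88, 13.2 and 8.78 CPM, against 0.994, 0.482, 1.62 and 0.650 (log2 fold change 3.37 with SE 0.65, edgeR adjusted p = 0.000917). No stroked mouse overlapped the non-stroked ones in these genes. H2-DMa, a peptide exchange chaperone of class II, had a log2 fold change of 0.14 and did not pass. Without mouse 2, 10 class I and 8 class II members were called, and with the male mice alone 1 and 0.

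Genes of lymphocytes were called in counts near the 5.01% of all genes or not at all. Of 18 T cell genes tested none was (edgeR; 1 at an unadjusted p below 0.05, and DESeq2 called 0; median log2 fold change 0.00), and the summed level of the list was at most 39.8 CPM in stroked and at most 54.4 CPM in non-stroked mice. Cd4, which other cells of the brain also transcribe, varied in both groups, at 10.5, 1.28 and 26.4 CPM after stroke, against 3.66, 13.5, 26.8 and 35.5. Cd3e had 0, 1 and 0 counts in the stroked and 0 in each non-stroked mouse. Of 12 B cell genes 1 was called, Cd22, a sialic acid receptor that microglia also carry, at 2.78, 10.6 and 3.61 CPM, against 0.146, 0.0254, 0 and 0.0928 (log2 fold change 6.39 with SE 0.87, edgeR adjusted p = 4.46e-05), while Ms4a1 stayed at 0. Without stroked mouse 3 the list had 3 members called higher and 1 lower. In that fit all stroked NSG mice were read as female and all non-stroked ones as male. Of 8 NK cell genes tested 1 was called, Klrb1b, at 0.354, 0.840 and 0.245 CPM, against 0.0585, 0, 0.113 and 0.0309 (log2 fold change 3.19 with SE 0.59, edgeR adjusted p = 0.000662), with Ncr1 at 0, and none with only the NSG samples in the fit. The summed level of the NK list was 11.3 CPM in non-stroked mouse 3 and 0.835 to 2.62 CPM in the other mice. The lowest log2 fold change in this list was -3.17, and DESeq2 called 1 member lower. What raised the level in that mouse was not tested. Ighm, the heavy chain of IgM, was counted at 48.7, 43.5 and 41.2 CPM after stroke, against 38.7, 52.9, 17.7 and 42, in mice without mature B cells.

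Signalling through the common gamma chain, the receptor subunit lost in NSG mice, was looked at gene by gene. Of 14 members tested 2 were called higher, Il15 and Il21r. Il15, which sustains NK cells, was at 0.506, 0.692 and 0.275 CPM, against 0.0585, 0.0762, 0.113 and 0.155 (log2 fold change 2.27 with SE 0.43, edgeR adjusted p = 0.000828), and Il21r at 2.63, 3.9 and 2.97 CPM, against 1.02, 1.42, 0.907 and 1.11 (log2 fold change 1.5 with SE 0.29, edgeR adjusted p = 0.00107). The mutated Il2rg was at 0.784, 0.914 and 0.979 CPM, against 1.05, 0.863, 0.822 and 0.681 (log2 fold change 0.06, SE 0.37). Il2rb overlapped as well (0.354, 0.198 and 0.551 CPM, against 0.234, 0.330, 0.539 and 0.464). Of the IL-6 family, which signals through Stat3, 5 of 15 were called, among them Osm, Cntf and Osmr, and of 19 genes of the IL-1 family and inflammasome 9 were, among them Il1rn, Casp4 and Pycard. Without mouse 2 these counts were 3 and 6, and for the IL-1 list 4 with only the NSG samples in the fit and 3 with sex as a covariate. Il1rn, the natural antagonist of IL-1, was at 0.633, 4.37 and 1.5 CPM, against 0.0877, 0.0508, 0.113 and 0.0928 (log2 fold change 4.61 with SE 0.90, edgeR adjusted p = 0.00101).

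The fibroblast scar was uneven between mice. Of 36 genes of fibroblasts and meninges 18 were called higher (median log2 fold change 1.08), and 10 were called without mouse 2 and 11 with only the NSG samples in the fit. Col1a1, the main fibrillar collagen, was at 34.7, 377 and 60.9 CPM, against 18.8, 8.96, 23.8 and 12.4 (log2 fold change 3.3 with SE 0.68, edgeR adjusted p = 0.00156), and Col3a1 at 30.1, 307 and 67.4, against 10.6, 3.96, 11.5 and 5.82 (log2 fold change 4.08 with SE 0.78, edgeR adjusted p = 0.00082). In mouse 2 both were far above the other stroked mice. Lum, a proteoglycan of collagen fibrils, was at 5.54, 57.9 and 14.2 CPM, against 2.34, 1.22, 2.1 and 0.959 (log2 fold change 3.97 with SE 0.69, edgeR adjusted p = 0.000363). Mgp, the matrix Gla protein, was at 34.1, 151 and 45.4 CPM, against 7.2, 4.19, 7.17 and 5.6 (log2 fold change 3.67 with SE 0.56, edgeR adjusted p = 0.00011), and Lox, which crosslinks collagen, at 2.66, 18.3 and 5.2, against 1.14, 0.559, 1.79 and 0.928 (log2 fold change 2.98 with SE 0.61, edgeR adjusted p = 0.00144). Fn1, Postn and Tnc, other proteins of scar matrix, did not pass (55.7, 245 and 109.8, 4.73, 14.5 and 8.57 and 8.3, 23.3 and 9.0 CPM, against 50.7 to 105, 5.6 to 9.83 and 7.61 to 13.8). The summed level of the list ranged from 1281 to 3558 CPM in stroked and from 827 to 1350 CPM in non-stroked mice and so overlapped. Without mouse 2, Col1a1 had a log2 fold change of 1.57 (edgeR adjusted p = 0.0547), and without mouse 1, Fn1 one of 1.22 (0.0192). Of 17 basement membrane genes, whose proteins sheath vessels, none was called (edgeR; 3 at an unadjusted p below 0.05, and DESeq2 called 0). Of 16 proteoglycan and link protein genes 1 was called, the hyaluronan receptor Cd44, beside 5.01% of all genes called higher.

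Genes of barrier endothelium and of VEGF signalling and sprouting were called in counts near the 5.01% of all genes. Of 21 genes of blood-brain barrier endothelium 1 was called higher, Icam1, the adhesion molecule for leukocytes, at 8.02, 14 and 6.88 CPM, against 3.16, 2.03, 4.11 and 2.54 (log2 fold change 1.7 with SE 0.34, edgeR adjusted p = 0.00123). Pecam1, which encodes CD31, was at 17.5, 22.3 and 14 CPM, against 18.3, 14.9, 18.9 and 16 (log2 fold change 0.08, SE 0.19). Of 29 genes of VEGF signalling and sprouting 2 were called, Angpt2 and Cxcr4 (without mouse 2 only 1), and Vegfa was not (84.9, 94.2 and 66.9 CPM, against 79.9, 76.7, 71 and 69.1). Of 15 pericyte and smooth muscle genes 2 were called, Anpep, which encodes CD13 and is also made by fibroblasts and macrophages, at 10.6, 33.2 and 17 CPM, against 6.17, 4.04, 7.91 and 4.55 (log2 fold change 1.84 with SE 0.43, edgeR adjusted p = 0.00366), and Tagln (1 of the list without mouse 1 and 1 without mouse 2), while Pdgfrb had a log2 fold change of 0.11. Of 22 TGF-beta genes 4 were called, with Tgfb1 at 14.4, 24.5 and 13.7 CPM, against 7.58, 7.41, 6.89 and 8.32 (log2 fold change 1.22 with SE 0.24, edgeR adjusted p = 0.00106), and 0 were without mouse 2 and 2 with only the NSG samples in the fit or with sex as a covariate.

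**Figure D4:**
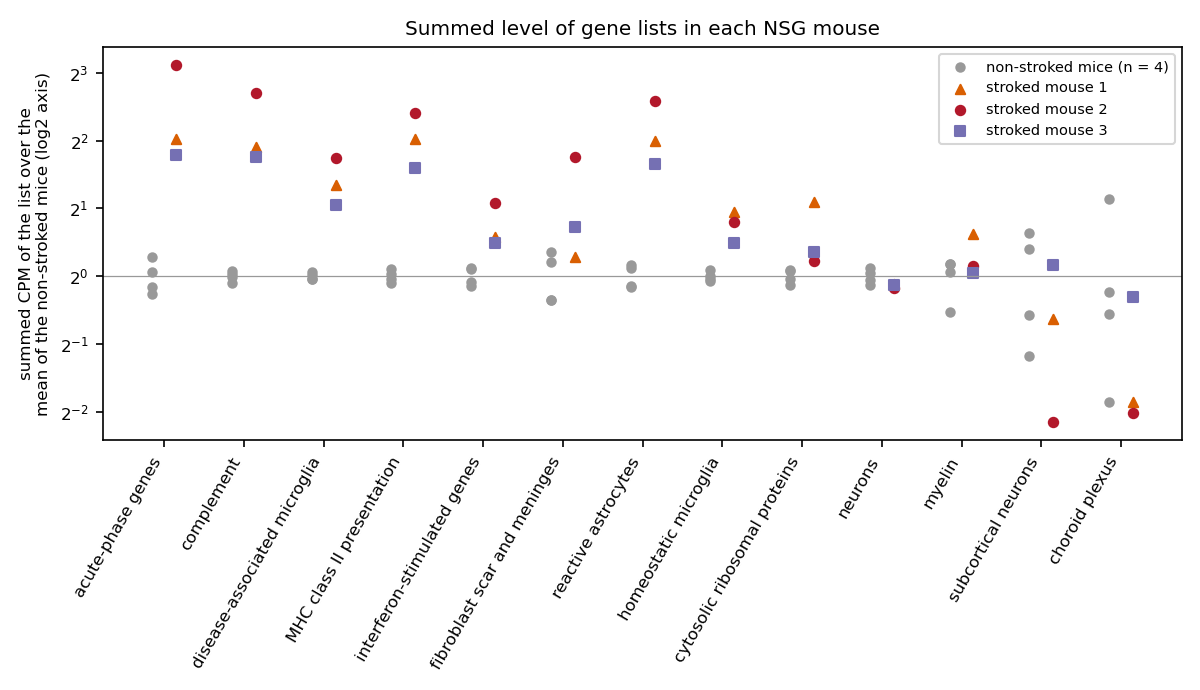
Summed CPM of gene lists in each NSG mouse divided by the mean of the 4 non-stroked mice, on a log2 axis. Stroked mouse 2 is highest for the lists of inflammation and scar, stroked mouse 1 for ribosomal proteins and myelin, and lists of choroid plexus and subcortical neurons are spread over a wide range in both groups.

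Genes of stress and iron were looked at next, in lists that share members with those above. Lcn2, at 9.14, had the highest log2 fold change of the glucocorticoid list and of the heme and iron list. The same held for the lists of acute-phase genes, reactive astrocytes and neutrophils. The counts of these lists are therefore not independent of each other. Of 18 genes that respond to glucocorticoids 9 were called higher, all 18 with positive changes: Sgk1, a kinase, was at 103, 139.8 and 127 CPM, against 50.7, 51, 48.1 and 53 (log2 fold change 1.28 with SE 0.16, edgeR adjusted p = 1.92e-05), and Nfkbia, the inhibitor of NF-kB, at 34.5, 45 and 26.1, against 10.6, 9.83, 13.8 and 9.1 (log2 fold change 1.7 with SE 0.20, edgeR adjusted p = 1.73e-05). Of 21 heme and iron genes 10 were called, with the ferrireductase Steap4 and the phagosomal iron transporter Slc11a1 (9.67, 19.8 and 9.49 CPM, against 2.66, 2.11, 2.41 and 2.72). Fth1, the ferritin heavy chain, was at 3332, 2201 and 1866 CPM, against 1411, 1508, 1020 and 1530 (log2 fold change 0.85, edgeR adjusted p = 0.00596), below the threshold, and without mouse 1 its adjusted p was 0.102. Of 21 S100 and annexin genes, which bind calcium, 10 were called, with S100a4 at 7.31, 9.34 and 5.48 CPM, against 1.23, 1.37, 0.850 and 1.49 (log2 fold change 2.58 with SE 0.41, edgeR adjusted p = 0.000162). Among 19 genes of axon injury and regeneration 4 were called, Atf3, Anxa1, Hspb1 and Lgals1. Atf3, a factor induced in injured neurons and also in macrophages, was at 3.19, 6.7 and 2.81 CPM, against 0.263, 0.508, 0.539 and 0.402 (log2 fold change 3.29 with SE 0.63, edgeR adjusted p = 0.000898), whereas Gap43 of growing axons had a log2 fold change of -0.24 and did not pass. Hspb1 lost its call without stroked mouse 1 (edgeR adjusted p = 0.0818) and without non-stroked mouse 2 (0.0508). No gene of 25 for the cell cycle was called (edgeR; 5 at an unadjusted p below 0.05, and DESeq2 called 0).

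Changes in neuronal genes were mostly below the fold threshold. Of 20 neuronal markers none was called (edgeR; 4 at an unadjusted p below 0.05, and DESeq2 called 0; median log2 fold change -0.08), and 2 had a negative change with an adjusted p below 0.05. Rbfox3, which encodes NeuN, was at 340.2, 322 and 384 CPM, against 401, 457, 366 and 505 (log2 fold change -0.31, SE 0.18), and Nefl, the neurofilament light chain, at 414, 368 and 335, against 337, 368, 296 and 417 (log2 fold change 0.07, SE 0.12). Nefh, the heavy chain, was at 156, 105 and 112 CPM, against 121, 109, 80.8 and 118 (log2 fold change 0.21, SE 0.19). Of 39 genes of glutamate, GABA and glycine receptors, 35 had negative log2 fold changes, 16 of these an adjusted p below 0.05. Called lower were 2, Gabrb2 and the glycine receptor gene Glra2. Over all 17031 genes, 1514 had a negative change with an adjusted p below 0.05. Of 38 voltage-gated channel genes, 34 were negative, 21 of these had an adjusted p below 0.05, and 1 was called, Kcnh5. Gabrb2, a subunit of the GABA-A receptor, was at 21.1, 88.2 and 98.1 CPM, against 156, 139.8, 138 and 144 (log2 fold change -1.06 with SE 0.29, edgeR adjusted p = 0.0109), and Scn2a, the sodium channel of excitatory neurons, at 193, 309 and 330.0, against 467, 466, 494 and 458 (log2 fold change -0.77 with SE 0.14, edgeR adjusted p = 0.000699). Mouse 1, in which long transcripts were low in general, was the lowest in both, and its part in these results was not tested. Without it, 7 of the receptor genes and 3 of the channel genes had a negative change with an adjusted p below 0.05, with median log2 fold changes of -0.29 and -0.30, and Kcnh5 was not called (edgeR adjusted p = 0.125). With only the NSG samples in the fit these counts were 1 and 3, with sex as a covariate 11 and 6, and for the channels 13 without non-stroked mouse 1, 2 or 4. None of 22 cortical layer genes (edgeR; 5 at an unadjusted p below 0.05, and DESeq2 called 0) and none of 24 neuropeptide and interneuron genes (edgeR; 5 at an unadjusted p below 0.05, and DESeq2 called 0) was called.

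The 10 named genes with the most negative change also included neuronal ones. Camk4, a calcium-dependent kinase of neurons, was at 27.6, 40.8 and 55.8 CPM, against 82, 92.7, 94.9 and 119.8 (log2 fold change -1.23 with SE 0.19, edgeR adjusted p = 0.000107). Oprm1, the mu opioid receptor, was at 0.354, 1.14 and 1.53 CPM, against 2.28, 1.78, 4.56 and 2.04 (log2 fold change -1.41 with SE 0.40, edgeR adjusted p = 0.0135). Kcna3, a potassium channel, was at 1.26, 4.77 and 4.9 CPM, against 8.1, 8.48, 11.2 and 7.02 (log2 fold change -1.26 with SE 0.29, edgeR adjusted p = 0.00399), and Gprin3 at 6.98, 10.6 and 22.7, against 22.8, 32, 50.2 and 46.2 (log2 fold change -1.5 with SE 0.40, edgeR adjusted p = 0.00943). Mouse 1 was lowest in these 4 genes. The other 6 were Plcxd3, Casr, Muc15, Samd3, Zfp804b and Xkr4, with log2 fold changes of -1.44 to -1.22. Xkr4 was at 5.95, 29.6 and 28.3 CPM, against 49.8, 48.4, 56.9 and 42.2, so that mice 2 and 3 lay below the non-stroked mice and mouse 1 far below. Without stroked mouse 1, Casr, Gprin3, Oprm1 and Zfp804b lost their calls (edgeR adjusted p from 0.0752 to 0.155), as did Oprm1 (0.0674) and Zfp804b (0.0561) without non-stroked mouse 3. Of the 80 lower genes, 61 were protein-coding and 5 had a log2 fold change below -2.

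Ribosomal protein genes had small positive changes. Of 80 tested, all had positive log2 fold changes, with a median of 0.63, and 68 had an adjusted p below 0.05 (beside 21.9% of all genes in either direction), but none exceeded a log2 fold change of 1 (DESeq2 0). Rpl13a was at 443, 218 and 262 CPM, against 172, 205, 181 and 209 (log2 fold change 0.68 with SE 0.15, edgeR adjusted p = 0.00219), and Rpl4 at 533, 337 and 364, against 286, 319.7, 291 and 326 (log2 fold change 0.43 with SE 0.11, edgeR adjusted p = 0.0072). For both, mouse 1 lay well above and mice 2 and 3 close to the non-stroked mice. Without mouse 1 neither passed (edgeR adjusted p = 0.0593 and 0.176). These transcripts are short, and without mouse 1, 12 of the 80 passed, with a median of 0.26, and with only the NSG samples in the fit 4 did. Nuclear genes of the respiratory chain had a median of 0.32, with 17 of 83 past an adjusted p of 0.05, all positive (beside 2212 of 17031 for all genes). Without mouse 1 their median was -0.013 and 0 of 83 passed (edgeR, 3 at an unadjusted p below 0.05), and with only the NSG samples in the fit 0 did (edgeR, 6 at an unadjusted p below 0.05), while without mouse 2 it was 51 and without mouse 3 it was 30. The 13 genes encoded by mitochondrial DNA had a median of 0.08, and none passed. Genes of cholesterol synthesis went the other way: 21 of 24 were negative, 14 with an adjusted p below 0.05 and none called (edgeR; 15 at an unadjusted p below 0.05, and DESeq2 called 0). Hmgcs1, the HMG-CoA synthase of the pathway, was at 186, 153 and 152 CPM, against 224, 255, 240.1 and 246 (log2 fold change -0.56 with SE 0.12, edgeR adjusted p = 0.00175), and here 11 of 24 passed without mouse 1 and 6 with only the NSG samples in the fit.

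Myelin genes were called in 2 of 22, Apod and Klk6, beside 5.01% of all genes called higher. Klk6 was not called without mouse 1 (edgeR adjusted p = 0.124). Apod, an apolipoprotein of oligodendrocytes and astrocytes, was at 532, 501 and 433 CPM, against 136, 109, 126 and 121 (log2 fold change 1.99 with SE 0.25, edgeR adjusted p = 1.92e-05), with 3 similar stroked mice. The structural gene Mbp overlapped between the groups (5090, 3534 and 3452 CPM, against 3700, 3826, 2194 and 3452). No gene of 16 for oligodendrocyte precursors was called (edgeR; 6 at an unadjusted p below 0.05, and DESeq2 called 0). Of 23 subcortical neuron genes none was called (edgeR; 3 at an unadjusted p below 0.05, and DESeq2 called 0), and their levels differed widely within the groups: Penk was at 440.4, 36 and 548 CPM, against 77.6, 228, 519.9 and 622, and Ppp1r1b, a marker of striatal neurons, at 365, 63 and 624, against 141, 322, 563 and 825. How much striatum each piece held was not tested.

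The stroke response of NSG mice was set against that of WT mice (4 stroked, 4 non-stroked) and Rag2-/- mice (3 and 3) as a difference of differences. All NSG and Rag2-/- samples and the 4 non-stroked WT mice belong to the Imm2 cohort, but stroked WT mice 3 and 4 belong to the TF cohort. These 2 had 0 counts of Ddx3y, whereas the other 6 WT mice had 1404 to 1881, so that cohort and sex differ in part with stroke among WT mice. Against WT, 2 of 17031 genes were called (0.0117%), Egr1 and Nr4a1, both immediate early genes that neurons switch on with activity, and 5 had an adjusted p below 0.05 (0.0294%). Egr1 was at 316, 467 and 450.1 CPM in stroked and 234, 398, 308 and 275 in non-stroked NSG mice, overlapping, while WT mice held 354, 345, 189 and 252 CPM after stroke and 599.7, 629.7, 1004 and 938 without it, and Rag2-/- mice 318, 291 and 350.1 and 514, 877 and 630.3. Nr4a1 was at 138, 168 and 148 CPM, against 59.8, 109, 95.6 and 52.6, in NSG mice, 85.6, 96.5, 46.2 and 89.7, against 124, 199.9, 349 and 146, in WT mice and 98, 64.6 and 90.2, against 158, 311 and 141, in Rag2-/- mice. In both genes the stroked NSG mice averaged above the non-stroked ones, and the stroked mice of the other strains below theirs. Non-stroked NSG mice were at the low end as well: all 4 lay below every non-stroked WT mouse for Egr1 and for Nr4a1. For Egr1 the difference between the NSG and the WT response was 1.91 on the log2 scale, SE 0.31, edgeR adjusted p = 0.0266, and for Nr4a1 2.3 on the log2 scale, SE 0.42, edgeR adjusted p = 0.0352.

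The wider list of 25 immediate early genes had a median log2 fold change of 0.64 in NSG, -0.97 in WT and -0.78 in Rag2-/- mice. In NSG mice 1 of them was called, beside 5.01% of all genes called higher. This was Klf4, at 6.3, 13.9 and 5.66 CPM, against 4.33, 2.77, 4.42 and 2.44 (log2 fold change 1.31 with SE 0.32, edgeR adjusted p = 0.00503), and it was not called without mouse 2 (edgeR adjusted p = 0.0727). Arc, a regulator of synaptic receptors, was at 309.5, 344 and 323 CPM, against 116, 248, 157 and 112, Fos at 41.1, 36.3 and 30.8, against 9.54, 26.7, 31.4 and 11.5, and Junb at 126, 93.1 and 107, against 44.8, 83.9, 70.6 and 48.5, all 3 with edgeR adjusted p from 0.0625 to 0.149 in NSG mice. Without non-stroked mouse 2, the edgeR adjusted p of Arc and Junb was 0.0419 and 0.042. Their differences from the WT response were 2.61, 2.31 and 1.91 on the log2 scale and did not pass (edgeR adjusted p = 0.0865, 0.124 and 0.0865). The 3 other genes with an adjusted p below 0.05 against WT were Vegfa, the vessel growth factor (0.75 on the log2 scale, SE 0.13, edgeR adjusted p = 0.0345), Gatm, which makes the precursor of creatine (0.78 on the log2 scale, SE 0.14, edgeR adjusted p = 0.0352), and Fam214a (-0.88 on the log2 scale, SE 0.15, edgeR adjusted p = 0.0266). Vegfa was at 58.6, 51.7, 54.6 and 53.3 CPM after stroke in WT mice, against 82.9, 82.9, 76.3 and 90.7, without overlap, and at 84.9, 94.2 and 66.9 in NSG mice, against 79.9, 76.7, 71 and 69.1, where, of the fits that left out 1 mouse, only that without mouse 3 had an adjusted p below 0.05 (edgeR adjusted p = 0.0434, log2 fold change 0.26).

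**Figure D5:**
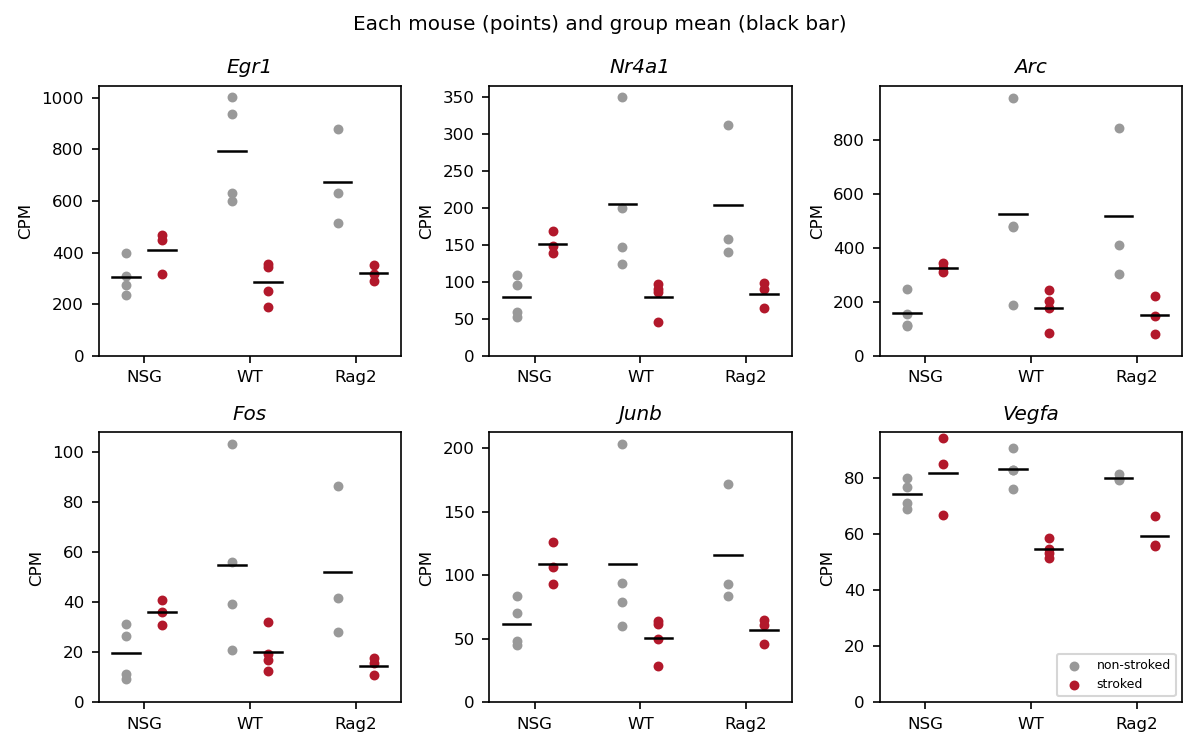
CPM of 6 genes in each mouse (points) and the group mean (black bar) for NSG, WT and Rag2-/- mice, grey for non-stroked and red for stroked. For Egr1, Nr4a1, Arc, Fos and Junb the mean is higher after stroke in NSG mice and lower after stroke in WT and Rag2-/- mice, and for Vegfa it is lower after stroke in WT and Rag2-/- mice.

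The 5 genes that differed from WT depended on which samples were fitted. In a fit of only the NSG and WT samples all 5 missed the threshold (edgeR adjusted p from 0.244 to 0.282), as they did within the Imm2 cohort, without the TF mice (0.302 to 0.345), where Egr1 and Nr4a1 differed by 1.61 and 2.1 on the log2 scale. The stroked TF mice held the lowest 2 of the 4 stroked WT values of Egr1. All 5 also missed it without stroked NSG mouse 2 (edgeR adjusted p = 0.127), without non-stroked NSG mouse 3 (0.0731 to 0.0996) and without non-stroked NSG mouse 4 (0.0791). Nr4a1, Vegfa, Gatm and Fam214a missed it without stroked NSG mouse 1 (edgeR adjusted p = 0.063), and Nr4a1 without non-stroked NSG mouse 1 (0.0875). By DESeq2 all 5 passed. Against Rag2-/- mice no gene was called (edgeR; the smallest adjusted p was 0.108, 1598 genes reached an unadjusted p below 0.05, and DESeq2 called 14). The 5 with the smallest p were Col26a1 (1.36 on the log2 scale, SE 0.24, edgeR adjusted p = 0.108), Gpr3 (1.5 on the log2 scale, SE 0.29, edgeR adjusted p = 0.108), Dusp6 (1.44 on the log2 scale, SE 0.27, edgeR adjusted p = 0.108), Trib1 (1.78 on the log2 scale, SE 0.36, edgeR adjusted p = 0.126) and Npat (-0.58 on the log2 scale, SE 0.12, edgeR adjusted p = 0.126). Dusp6, which switches off ERK signalling, Trib1 and Gpr3 are activity- or growth factor-regulated genes, and each averaged higher after stroke in NSG and lower after stroke in Rag2-/- mice. The NSG samples are shared by both differences. Choroid plexus genes had a median log2 fold change of -1.22 in NSG, -1.07 in WT and 3.96 in Rag2-/- mice. What this uneven content added to the differences was not tested. Among Rag2-/- mice, non-stroked mice 1 and 2 and stroked mouse 1 had 0 to 2 counts of Ddx3y, and the others 1225 to 1595. Sex was thus spread over stroke differently in NSG and in Rag2-/- mice. Strain background, the missing immune cells and breeding line differ together between these groups. Sex differs in part in both comparisons, and cohort in part against WT, and all of these cannot be told apart.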

How the data were processed

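Per the labels and the study's methods, RNA of microdissected brain tissue (RNA integrity checked, polyA selection, stranded TruSeq libraries) was sequenced, and the authors deposited raw counts per gene and sample in whole numbers. The aligner, genome build, annotation and use of strand in counting are not given in the sources used here, so reads of overlapping or antisense genes and of near-identical paralogs may be shared. The files hold 25746 genes, of which 25712 were found in GENCODE M21 (GRCm38), the source of positions and exon lengths. Promoters came from RefSeq (GRCm38.p6).

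Counts of all 8 groups were fitted in edgeR 4.0.16 (R 4.3.3) with TMM scaling, filterByExpr and the quasi-likelihood test, so that the groups share 1 estimate of spread, and p-values were Benjamini-Hochberg adjusted over 17031 genes. A gene was called at an adjusted p under 0.05 and a log2 fold change beyond 1 in either direction. SE is the log2 fold change divided by the square root of F. The difference between strains is the interaction contrast. CPM uses the TMM-adjusted library size. Ratios of summed counts for genes with at most 3 counts in the non-stroked mice carry an exact interval (scipy 1.17.1). DESeq2 1.42.0, other scaling, filters, covariates and fits without 1 mouse were tried as alternatives. On simulated counts of 16817 genes for the NSG comparison, 96 of 100 genes changed by 1.5 on the log2 scale and 99 of 100 changed by 3 were recovered, with 3 false calls. The changed genes all averaged above 1 CPM, and the simulated mice did not differ by sex or transcript length. These rates therefore do not cover genes with few counts or the uneven mice of the data. P-values measure only the spread between these mice. Sex was read from Ddx3y, since no label gives it.

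Named genes are the 15 with the largest and the 10 with the most negative log2 fold change among those called without overlap and averaging at least 1 CPM in the higher group, from each gene list up to 4 called and up to 3 not called members, the genes altered in the strains, genes the study stains, and the called genes or the 5 with the smallest p in the differences. The members and gene lists were chosen with earlier results of these data known, and further list members were named after their values were seen. Some members of the gene lists are not reported here.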

Additional observations from a re-analysis of the deposited data

Results flagged for a closer look

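Among the 4 non-stroked NSG mice, 1 value lay far from the other 3 (Dixon's test at the 95% level, which marks about 1 in 20 groups by chance) for 6 of the genes named here. The fits hold 168 of the genes named here, so 6 is not above that rate. Dusp6, which switches off ERK signalling, was at 55.6 CPM in mouse 2, and at 37.0 to 37.6 CPM in the other non-stroked mice. Timp1 was lowest in mouse 2, at 0.279 CPM, against 0.368 to 0.380 CPM in the others. Cd209a, a dendritic cell gene, was also lowest in mouse 2, at 0.0254 CPM. Atp6v0d2 (0.0254 CPM), Cd5l (0.0283 CPM) and Cst7 (0.0283 CPM) each stood out through a single count. Any gene with 1 count in these 4 mice together is marked in this way, so the test says nothing about these genes.

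The stroke response of NSG mice differed from that of WT mice by the interaction contrast of edgeR's quasi-likelihood test in 5 genes. All 5 missed the threshold within the Imm2 cohort (edgeR adjusted p from 0.302 to 0.345) and in a fit of only the NSG and WT samples (0.244 to 0.282). On the log2 scale the difference was 1.91 for Egr1, 2.30 for Nr4a1, 0.75 for Vegfa, 0.78 for Gatm and -0.88 for Fam214a. Gatm averaged 112 CPM in stroked and 70.7 CPM in non-stroked NSG mice, and 93.9 and 102 CPM in WT mice. Fam214a averaged 39.9 and 49.5 CPM in NSG mice, and 58.0 and 39.0 CPM in WT mice.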

How the results depend on the processing

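Setting aside 1 mouse at a time left 542 to 984 genes called higher, 25 to 272 called lower, 0 to 117 called against WT and 0 to 21 called against Rag2-/- mice. The fewest were higher without stroked mouse 2 and the fewest lower without stroked mouse 1, and each of the 4 counts was highest without stroked mouse 3. Stroked mouse 3 was the only stroked NSG mouse read as male, and all non-stroked NSG mice were read as male. In every result without it, sex and stroke cannot be told apart among NSG mice. With no minimum fold change 2212 genes were higher, 1514 lower and 5 called against WT, and with a mean of at least 1 CPM 49 were lower and 4 called against WT. With only the groups compared in the fit 542 were higher, 7 lower and 0 called against WT. With sex as a covariate 524 were higher and 9 called against WT, and with the male mice alone, an alternative chosen after seeing the data as was the Ttr level as a covariate (4 against WT), 102 were higher, 0 lower and 0 called against WT. Within the Imm2 cohort 0 were called against WT, and DESeq2 called 69 against WT and 14 against Rag2-/- mice. The first principal component held 48.98% of the variance over all genes tested. Replicate numbers did not pair the mice: deviations of same-numbered mice correlated at -0.227, -0.0571 and 0.185, and with the replicate number as a block 167 genes were higher and 7 lower, against 281 and 2 in the same 6 samples without it. The causes of these shifts were not tested. Over the genes named and all alternatives, 2603 values kept their direction and side of the threshold, 321 fell short of it, 17 newly passed it and 43 changed sign, all of the last in genes that were not called. With the male mice alone the sign turned for Cd4 (0.40), Il2rb (0.49), Nefl (-0.082), Pecam1 (-0.28), Penk (0.59), Ppp1r1b (0.43), Tnc (-0.26) and Vegfa (-0.15). With sex as a covariate the sign turned for Hc (-0.12), Il2rg (-0.14), Pdgfrb (-0.005), Pecam1 (-0.25) and Postn (-0.004). With the replicate block the sign turned for Il2rg (-0.029), P2ry12 (0.026) and Penk (0.004). For the 6 block samples fitted without the block the sign turned for Hc (-0.014), Il2rg (-0.030), P2ry12 (0.026), Penk (0.30) and Ppp1r1b (0.034). Leaving out 1 mouse at a time turned it for Gap43 (-0.53 to 0.013), Hc (-0.16 to 0.59), Ighm (-0.003 to 0.44), Il2rb (-0.51 to 0.19), Il2rg (-0.033 to 0.17), Mmp9 (-0.072 to 0.57), Nefl (-0.019 to 0.16), P2ry12 (-0.11 to 0.025), Pdgfrb (-0.052 to 0.23), Pecam1 (-0.12 to 0.22), Penk (-0.62 to 0.44), Postn (-0.18 to 0.62), Ppp1r1b (-1.13 to 0.084) and Tnc (-0.32 to 0.58). With 3 stroked mice, 1 of them male, sex and stroke cannot be fully told apart, and genes with few counts in non-stroked mice have folds known only within wide intervals.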
